A study of Rattus norvegicus with 8 samples.

Results

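The lungs compared here came from rats that breathed cigarette smoke for 12 weeks and then received, into the trachea in week 13, either human umbilical cord mesenchymal stem cells (MSCs, about 2500000 cells) or the extracellular vesicles (EVs) isolated from that many cells. Of the 8 arrays in the study, 4 belong to this comparison, 2 of lung given EVs and 2 of lung given MSCs, chosen by their titles. The other 4 arrays, 2 of naive rats in normal air and 2 of smoke-exposed rats with no treatment, entered the fit for its estimate of spread and are shown as context. All rats were male, and each 1-colour rat array carried Cy3-labelled cDNA made from 200 ng of total RNA out of 30 mg of lung. The labels give no strain, age or time of sampling, and they describe no group that received the delivery fluid alone. They do not say that the replicates of a group are separate animals, so p-values measure only the spread between these samples, which may be technical. The donor cells and vesicles are human and the probes are designed for rat, so what human RNA contributed to the signal was not tested.

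MSCs are stromal cells that attach and secrete growth factors, prostaglandins and other mediators that act on immune and epithelial cells. EVs are membrane-bound particles that cells shed. They are formed in endosomes by sorting proteins such as TSG101 and ALIX or at the plasma membrane, and they carry proteins, lipids and RNA of the parent cell without dividing or secreting new product themselves. In smoke-exposed lung the readouts usually followed are neutrophil and macrophage genes, the NF-kB pathway and its cytokine targets, and genes of the epithelial barrier. The comparison asks where lung given EVs and lung given the parent cells differed.

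A level below is the log2 of a probe's processed signal minus the 75th percentile of its array, and a difference is the mean of the 2 EV arrays minus the mean of the 2 MSC arrays on that scale. The same differences were computed on a second scale, the control scale, in which each array is set against the E1A spike-in RNAs that the labelling kit adds to every sample. A gene is called when limma's Benjamini-Hochberg adjusted p is below 0.05 over all 23820 features, of which 11783 carry a gene symbol. The groups had unequal brightness. By the 75th percentile, untreated smoke was brightest, at 3310 and 2720, while naive reached 581 and 373. EV arrays had a 75th percentile of signal of 778 and 494 and MSC arrays one of 250 and 264, a ratio of 2.41 between the geometric means. The E1A controls went the other way, at 0.833 times the MSC signal on the EV arrays, with all 7 control probes used lying between -0.36 and -0.19. The control scale therefore lies 1.53 log2 units above the percentile scale for every EV minus MSC difference fitted on all arrays. The median difference of all features was -0.26 on the percentile scale and 1.28 on the control scale, and each direction below is relative to the scale named.

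Lung given EVs and lung given MSCs differed at 2826 features on the percentile scale (11.9% of those tested), 746 of them higher with EVs (3.13%) and 2080 lower (8.73%). Among features with a symbol 397 were higher (3.37%) and 747 lower (6.34%). On the control scale 11077 features were higher (46.5%) and 17 lower (0.0714%). All 746 higher calls were among the higher ones there, which the upward shift of that scale fixes and which is no sign of their stability. Of the 2080 lower calls 16 were called lower on the control scale and 1010 turned sign, none of them to a higher call. The signals of the EV and MSC arrays did not overlap for any of the 2826 features, and the difference was 2-fold or more for 2812 of them. Non-overlap is common with 2 arrays a group and adds no support to a call. Of the 500 genes tested in the lists used below, 120 did not overlap with EVs higher and 151 with EVs lower, while 18 and 25 were called. The share without overlap over all features was not counted, so these counts are no result about the lists.

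The counts rest on few arrays. Without either of the EV arrays limma called no feature in a fit that let the remaining array vary like the other groups (3952 features had an unadjusted p below 0.05 with the first EV replicate left out, and 5842 with the second). It called 577 when the first MSC replicate was left out and 1112 when either smoke array was. A limma fit of the 4 EV and MSC arrays alone called 0, with 7347 features at an unadjusted p below 0.05, and one with no filter on dim probes called 0, with 9007. Every call of a gene below is thus lost in these 4 alternatives. Lcn2, Fn1, Lrrn4, Lyve1 and Acer2 kept their call in the other 17 of 21. Column of the slide and group cannot be told apart, because each group fills 1 column of the single slide.

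**Figure D1:**
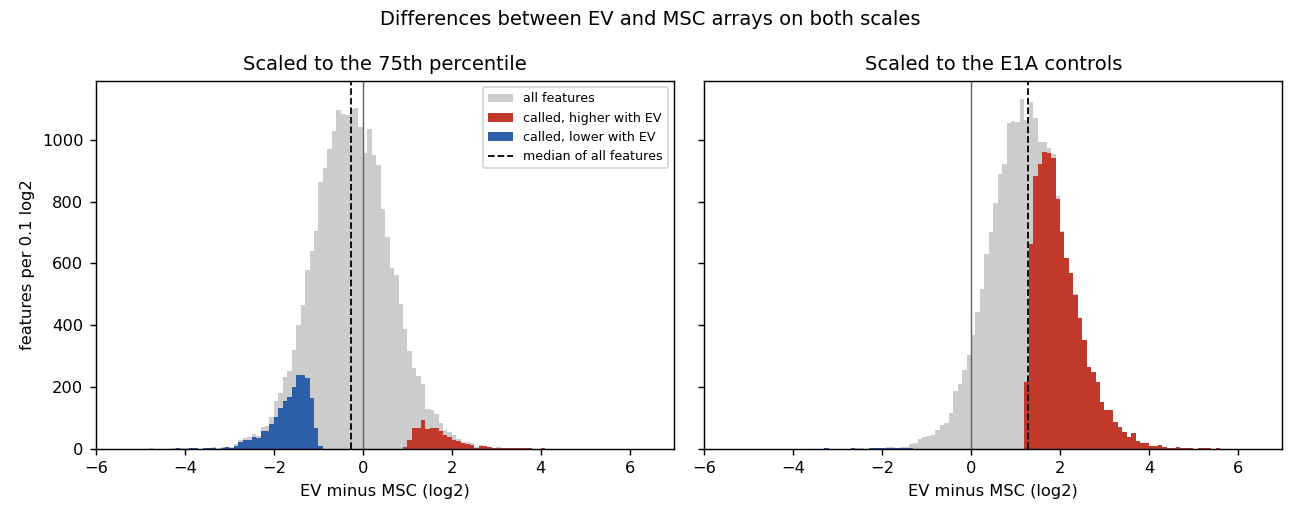
Histograms of the EV minus MSC difference (log2, x axis) over the 23820 features, in bins of 0.1, with the number of features on the y axis, on the percentile scale at left and the control scale at right. Red and blue mark features called higher and lower with EVs by limma, and the dashed line marks the median of all features, which lies at -0.26 at left and 1.28 at right. The calls change from mostly lower at left (2080 of 2826) to nearly all higher at right (11077 of 11094).

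The naive and smoke arrays give a position for the called features, as a description with no test, since the features were chosen for a difference between EV and MSC arrays. On the percentile scale both MSC arrays lay below the 6 other arrays at 662 of the 746 features higher with EVs. They lay above the 6 others at 2018 of the 2080 lower with EVs. Over all features the shares below and above were 9.57% and 28%. The counts of the same called features were 741 and 118 on the control scale, beside 56.6% and 0.546% of all features there. Orders that include the naive or smoke arrays are on the percentile scale below unless the control scale is named. Such orders depend on the scale. Smoke levels lie higher against the EV and MSC arrays on the control scale, where the large percentile of smoke is not subtracted. The EV replicates were closer to each other than the MSC replicates, with a correlation over probes of 0.982 against 0.95 and a standard deviation of the replicate difference of 0.512 against 0.858 log2 units. Between EV and MSC arrays the correlation ran from 0.922 to 0.935.

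Markers of lung were bright on all 4 arrays. Sftpc, the surfactant protein C gene of the alveolar type 2 cell, had the brightest gene probe on both EV arrays and ranked 8 and 12 on the MSC arrays. Its level was 9.10 and 9.48 with EVs and 9.80 and 8.92 with MSCs, so the groups overlapped, and the difference of -0.07 turned to 1.47 on the control scale and was above 0 under every other scaling run. Scgb1a1, the secretory protein of airway club cells, stood at 6.43 and 6.62 with EVs and at 5.40 and 7.31 with MSCs, which again overlapped. In bulk lung, fewer cells of a type and less RNA per cell cannot be told apart. Heart muscle genes differed between arrays of the same group: their summed level was 5.01 and 1.22 with EVs and 1.77 and 6.19 with MSCs. None of the 6 heart muscle genes tested was called, and the part of such tissue in other results was not tested.

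The promoters of Cxcl1 and Lcn2 are printed here because both genes of neutrophil biology were called higher with EVs on both scales, at 2.10 and 2.09, and both are known targets of NF-kB. Each is the 250 bases before the gene's start in RefSeq's rat assembly GRCr8, and capitals mark matches to the kappa B consensus, the binding motif of NF-kB, searched on both strands. Cxcl1 lies on the minus strand, with its window at chr14:17479322-17479571, and Lcn2 on the minus strand, with its window at chr3:36081781-36082030.
Cxcl1: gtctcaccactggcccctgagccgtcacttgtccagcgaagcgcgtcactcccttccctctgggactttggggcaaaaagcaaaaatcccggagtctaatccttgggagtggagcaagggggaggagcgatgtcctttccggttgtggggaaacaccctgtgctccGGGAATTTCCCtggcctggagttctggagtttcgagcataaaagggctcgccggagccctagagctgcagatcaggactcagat
Lcn2: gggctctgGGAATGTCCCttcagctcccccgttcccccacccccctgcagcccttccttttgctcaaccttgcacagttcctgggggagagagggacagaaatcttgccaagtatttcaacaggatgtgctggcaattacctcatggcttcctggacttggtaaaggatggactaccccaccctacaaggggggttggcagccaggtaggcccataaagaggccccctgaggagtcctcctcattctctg

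The Cxcl1 window held 2 overlapping matches, which began 84 and 83 bases before the start, and the Lcn2 window held 1, which began 242 bases before it. Such a match occurred in 2117 of 33469 windows of this length (6.33%). The windows of Il33 and Cxcr2, the other called genes searched, held none. A match describes the letters of the window and no binding was measured.

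Of 11 listed neutrophil genes 6 passed the filter on dim probes, and 3 of the 6 were called higher in lung given EVs than in lung given MSCs (3.13% of all features) and 0 lower. Their median difference was 1.30 against -0.26 for all features. Lcn2, the iron-binding protein lipocalin 2 of neutrophil granules and inflamed epithelium, had levels of 1.44 and 1.12 with EVs and -0.49 and -1.13 with MSCs. Both EV arrays lay above both MSC arrays and close to the naive ones, at 1.21 and 0.95, while the smoke arrays were higher, at 2.86 and 2.57. The difference was 2.09 (SE 0.32, limma adjusted p = 0.0254) and 3.63 on the control scale.

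S100a8, 1 chain of calprotectin, the calcium-binding protein that fills neutrophil cytoplasm, stood at 1.17 and 0.49 with EVs and at -1.25 and -0.86 with MSCs. The groups did not overlap, and the difference was 1.89 (SE 0.45, limma adjusted p = 0.039). Its partner S100a9, which encodes the other chain, did not pass, at 0.31 (limma adjusted p = 0.726). Cxcr2, the receptor through which neutrophils sense CXCL1, had levels of -2.10 and -2.35 with EVs and -3.73 and -3.37 with MSCs. On this scale the EV arrays were the highest of all for Cxcr2, above smoke at -3.84 and -3.86. Smoke, at -3.18 and -3.76 on the control scale, lay above EVs there, at -3.86 and -4.80. The difference was 1.33 (SE 0.29, limma adjusted p = 0.0369). The second naive array was dropped there as an outlier spot. Csf3r, the receptor for the neutrophil growth factor G-CSF, at 0.88, and Camp, a cathelicidin of neutrophil granules, at 1.27, did not pass. Mmp8, Mmp9, Ngp, Elane and Mpo were not kept by the filter or not matched. S100a8 and Cxcr2 each kept their call in 10 of 21 alternatives; S100a8 lost it with cyclic loess and Cxcr2 with normexp. The median of the 6 was positive under every scaling run, from 0.43 with normexp background correction to 2.83 on the control scale. The summed level of the list nevertheless overlapped, at 3.93 and 3.59 with EVs and 2.51 and 3.65 with MSCs.

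Cytokine and chemokine genes differed in both directions. Of 19 tested, 2 were called higher and 2 lower, beside 3.13% and 8.73% of all features. Cxcl1, the main neutrophil-attracting chemokine of the rat, stood at -1.64 and -1.66 with EVs and at -3.53 and -3.97 with MSCs. Both EV arrays lay above the naive ones (-2.58 and -2.69) and below the smoke ones (0.52 and -0.21), while the MSC arrays were the lowest of all. The difference was 2.10 (SE 0.33, limma adjusted p = 0.0254), and 3.63 on the control scale. With normexp it was 0.63 and not called (limma adjusted p = 0.0739).

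Il33, an alarmin held in the nuclei of epithelial and endothelial cells, had levels of 0.58 and 0.29 with EVs and -1.18 and -1.06 with MSCs. Again the EV arrays were near the naive arrays (0.25 and -0.41), the smoke arrays were higher (2.35 and 2.15) and the MSC arrays lowest. The difference was 1.55 (SE 0.31, limma adjusted p = 0.0293), and 3.09 on the control scale. Csf3, which encodes G-CSF, went the other way, with levels of -3.76 and -3.33 with EVs and -0.07 and -1.44 with MSCs. The MSC arrays were the highest of all 8 for Csf3 on the percentile scale, above the naive arrays at -2.76 and -3.12, and overlapped the smoke and naive arrays on the control scale. Its difference of -2.79 (SE 0.51, limma adjusted p = 0.0263) became -1.25 on the control scale, where it was not called (limma adjusted p = 0.073). Il12b, the p40 subunit shared by interleukins 12 and 23, was lower at -1.54 and stood at 0.00 on the control scale, and it kept its call in 2 of 21 alternatives.

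The cytokine genes that the study's field follows most did not pass. Tnf stood at -1.92 and -1.72 with EVs and -0.13 and -0.91 with MSCs, without overlap. Its difference of -1.30 (SE 0.38, limma adjusted p = 0.0623) turned to 0.24 on the control scale. The monocyte chemokine gene Ccl2 had a difference of -1.72 (SE 0.64, limma adjusted p = 0.107). Il1b lay at 0.13 and 0.04 with EVs and at 0.24 and 0.98 with MSCs, a difference of -0.52 that turned to 1.01 on the control scale. The chemokine genes Ccl3, Ccl5 and Cxcl2 had differences of 1.31, 1.70 and 1.26, none of them called. Probes of Il10, an anti-inflammatory cytokine, were not well above background in either group.

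No NF-kB gene was called among 14 tested, and their median difference was 0.10, with 7 above and 7 below 0, which turned to -0.28 with normexp. Rela, which encodes the p65 subunit, stood at -1.81 and -2.01 with EVs and -2.70 and -2.34 with MSCs, so the EV arrays were higher without overlap. The difference of 0.61 did not pass (SE 0.30, limma adjusted p = 0.198). Nfkbia, the inhibitor that p65 itself induces, had a difference of 1.07 (limma adjusted p = 0.1) and Nfkb1 of 1.02 (limma adjusted p = 0.272). No protein kinase C gene was called among 10, beside 11.9% of all features called in either direction. Prkcz, the atypical zeta isoform, had levels of -0.48 and -0.64 with EVs and -1.29 and -1.64 with MSCs. Its difference of 0.90 missed the threshold (SE 0.27, limma adjusted p = 0.0661), and its other probe stood at -0.22. On the control scale 9 of the 14 NF-kB genes and 6 of the 10 protein kinase C genes were called higher, beside 46.5% of all features.

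**Figure D2:**
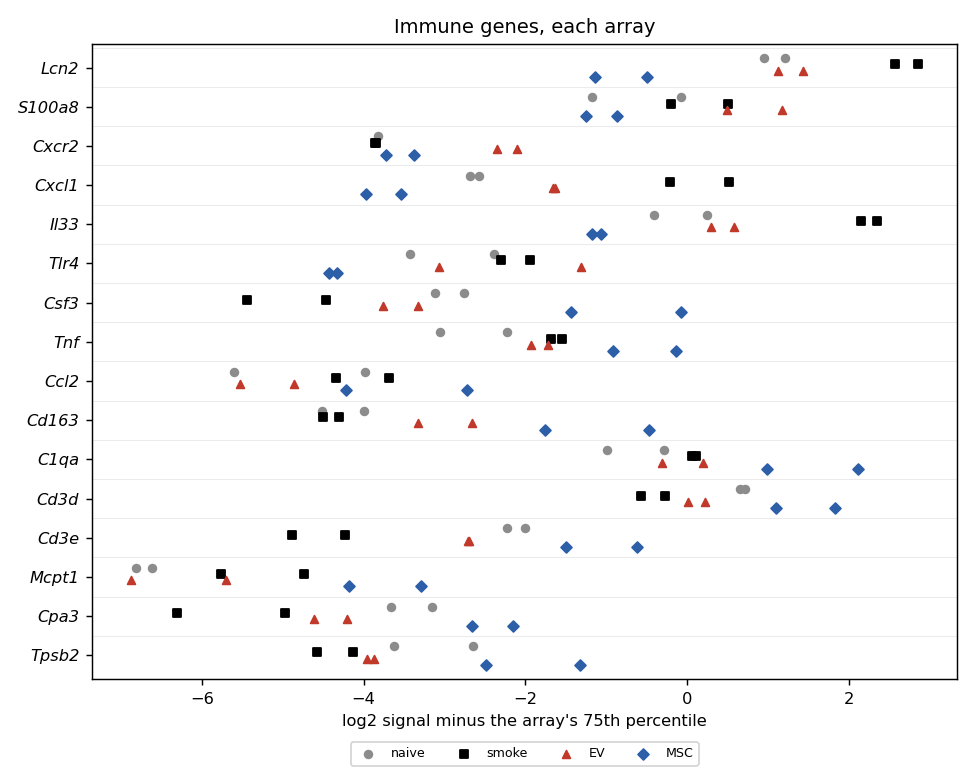
Level of 16 immune genes (log2 signal minus the array's 75th percentile, x axis) on each of the 8 arrays, 1 gene a row, with 1 symbol for each array of the naive, smoke, EV and MSC groups. Lcn2, Cxcl1, Il33 and Tlr4 have both MSC arrays (blue) lowest, and Csf3, Cd163, C1qa, Cd3d, Cd3e, Mcpt1, Cpa3 and Tpsb2 have both MSC arrays highest on this scale; none of this second set was called on the control scale.

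Receptors that sense microbes and tissue damage split in the same manner. Of 13 toll-like receptor and related genes, 1 was called higher and 2 lower, beside 3.13% and 8.73% of all features. Tlr4, the receptor for bacterial lipopolysaccharide, had levels of -3.07 and -1.31 with EVs and -4.33 and -4.43 with MSCs. The EV arrays differed more from each other than the MSC arrays did but stayed above them, and the difference was 2.19 (SE 0.57, limma adjusted p = 0.0465), a call that 9 of 21 alternatives kept. Tlr5, the flagellin receptor, was lower, at -3.22 and -2.76 with EVs and -1.20 and -0.58 with MSCs. Its difference of -2.10 (SE 0.43, limma adjusted p = 0.0294) shrank to -0.57 on the control scale. Sting1, the adaptor that responds to cytosolic DNA, was lower at -1.14 and turned to 0.39 on the control scale. None of 16 interferon response genes was called, with a median of -0.18 that turned to 1.35 on the control scale, 0.10 with median centring and 0.05 with quantile normalization.

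Some markers of macrophages, T cells, B cells and mast cells were called lower in lung given EVs on the percentile scale (8.73% of all features), and no member of these lists was called lower on the control scale. Of 6 natural killer and cytotoxic genes none was called, and 5 had a positive difference, with a median of 0.44 that turned to -0.01 with normexp. Of 12 macrophage genes tested 2 were called lower and 0 higher, and the summed level of the list overlapped, at 7.83 and 8.22 with EVs and 8.03 and 7.04 with MSCs. Cd163, the haemoglobin scavenger receptor, had levels of -2.66 and -3.32 with EVs and -1.75 and -0.47 with MSCs. All 4 treated arrays lay above the naive (-4.51 and -3.99) and smoke arrays (-4.50 and -4.30) on the percentile scale, and the EV arrays below the MSC ones. Smoke, at -3.83 and -4.21 on the control scale, lay above EVs there, at -4.41 and -5.77, and the EV and MSC arrays overlapped. The difference was -1.88 (SE 0.46, limma adjusted p = 0.0407) and -0.35 on the control scale, and the call was also lost with median centring, quantile normalization and cyclic loess. C1qa, a complement chain made by tissue macrophages, was lower at -1.61 and stood at -0.08 on the control scale. C1qb and C1qc, the other chains, at -1.29 and -1.45, did not pass. Cd68 at 0.92, Mrc1 at 0.72 and Lyz2 at 0.60 lay above 0 and did not pass, and the median of the 12 was -0.73, which turned to 0.80 on the control scale.

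All 6 T cell genes tested had a negative difference, and 2 were called. Cd3e, a chain of the T cell receptor complex, stood at -2.71 and -2.69 with EVs and at -1.50 and -0.62 with MSCs. On this scale the EV arrays lay between the smoke arrays (-4.23 and -4.88) and the naive ones (-2.22 and -2.00), while on the control scale all 4 groups overlapped. The difference was -1.64 (SE 0.37, limma adjusted p = 0.0356). Cd3d was lower at -1.34. Both calls were also lost with median centring, quantile normalization and cyclic loess. The list's median of -1.23 turned to 0.31 on the control scale, where Cd3e stood at -0.11 and Cd3d at 0.19. Of 5 B cell genes Pax5, the transcription factor that fixes B cell identity, was called lower at -1.30, which turned to 0.23 on the control scale.

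Mast cell proteases gave the largest of these differences. Mcpt1, a mast cell chymase, had levels of -5.70 and -6.87 with EVs, only 1 of them well above background, and -4.18 and -3.29 with MSCs. The difference was -2.55 (SE 0.51, limma adjusted p = 0.0291). Cpa3, carboxypeptidase A of mast cells, and Tpsb2, a tryptase, were both lower at -2.01. The list's median of -1.54 became -0.01 on the control scale, where the same 3 genes stood at -1.02, -0.47 and -0.48 and none was called.

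Immediate early genes, which switch on within minutes of stimulation or tissue handling, had a negative difference in 13 of 14, with no call. Their median of -1.41 turned to 0.13 on the control scale. Nr4a1 had the lowest difference, -2.59 (limma adjusted p = 0.0888), and Egr1 stood at -2.07 (limma adjusted p = 0.218). The summed level of the list was 7.41 and 5.38 with MSCs, above 4.93 and 4.85 with EVs. The MSC arrays differed from each other more than the EV arrays did.

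**Figure D3:**
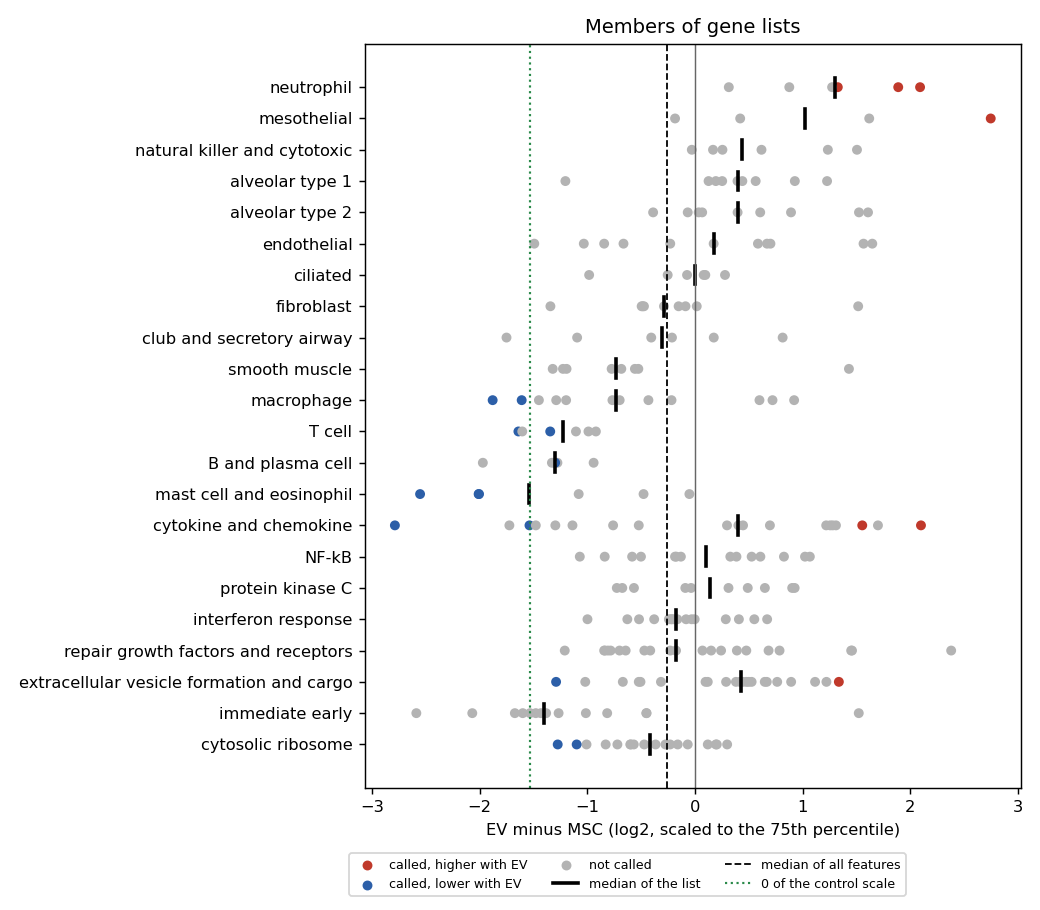
EV minus MSC differences (log2, percentile scale, x axis) of the members of 22 gene lists, 1 list a row and 1 point a gene, red or blue where limma called the gene and grey where it did not. Black bars mark the median of a list, the dashed line the median of all features (-0.26) and the dotted line the position that is 0 on the control scale (-1.53). The neutrophil row lies furthest right, with a median of 1.30, and the mast cell row furthest left, with a median of -1.54 that lies at -0.01 on the control scale.

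The epithelial barrier list held 3 higher calls and 0 lower among 11 genes tested, beside 3.13% and 8.73% of all features. Its median was -0.19, which turned to 1.35 on the control scale, 0.09 with median centring and 0.03 with quantile normalization. Tjp1, the scaffold protein ZO-1 of tight junctions, stood at 0.55 and 0.52 with EVs and -0.61 and -1.43 with MSCs. The EV arrays matched the naive ones (0.55 and 0.21), the smoke arrays were higher (1.65 and 1.66), and the difference was 1.55 (SE 0.34, limma adjusted p = 0.0323). Jup, the plakoglobin of desmosomes, was higher at 1.31. F11r, the junctional adhesion molecule A, was higher at 1.99, but its other probe stood at -0.61. The claudin genes Cldn3, Cldn4, Cldn7 and Cldn18 had differences between -1.19 and -0.19 and did not pass.

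On the percentile scale none of the genes that mark alveolar type 1, alveolar type 2, club, ciliated, endothelial, smooth muscle or fibroblast cells was called, out of 9, 9, 6, 6, 11, 8 and 9 tested. Scaled on the control spots 8, 7, 2, 4, 7, 1 and 2 of them were called higher, beside 46.5% of all features, and quantile normalization called 3 of the 9 alveolar type 2 genes higher. The medians were 0.40 for both alveolar lists and -0.73 for smooth muscle, and all 3 were positive on the control scale. Of 4 mesothelial genes Lrrn4, a neuronal leucine-rich repeat protein that marks the lung's outer lining, was called higher, with levels of -0.63 and -0.88 with EVs and -3.58 and -3.42 with MSCs. Its MSC arrays were the lowest of all 8 on both scales. Its EV arrays were the highest on the percentile scale, while on the control scale smoke, at -0.93 and -1.84, lay above EVs, at -2.38 and -3.33. The difference was 2.75 (SE 0.36, limma adjusted p = 0.0254). Upk1b, a uroplakin of urothelium and mesothelium, was also among the 12 highest genes at 2.85. The other mesothelial genes were at -0.19 for Msln, 0.42 for Calb2 and 1.62 for Wt1, and did not pass.

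Genes of matrix and repair showed single higher calls, beside 3.13% of all features. Fn1, which encodes fibronectin, had levels of 1.26 and 1.06 with EVs and -0.29 and -0.61 with MSCs. Both EV arrays lay near the naive arrays (0.93 and 1.00), and the difference was 1.61 (SE 0.27, limma adjusted p = 0.0254). It was the single call among 17 matrix genes. Tgfbr2, the type 2 receptor for TGF-beta, was the single call among 14 genes of that pathway, at 1.23, with its other probe at -0.64. Of 21 repair growth factors and receptors none was called. Areg, the epidermal growth factor family ligand amphiregulin, had the largest difference among them, 2.38 (SE 0.69, limma adjusted p = 0.0583), and was well above background on 1 of the 2 MSC arrays. Hgf, the hepatocyte growth factor that MSCs secrete, stood at -3.90 and -3.04 with EVs and -3.74 and -3.68 with MSCs, which overlapped, and its difference was 0.24.

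Lists tied to the agents themselves held few calls, beside 3.13% higher and 8.73% lower of all features. Of 22 genes of vesicle formation and cargo, Sdc4, the heparan sulfate proteoglycan syndecan 4, was called higher at 1.34 and Tsg101, the endosomal sorting protein, lower at -1.29. The Tsg101 difference turned to 0.24 on the control scale. The tetraspanins Cd9, Cd63 and Cd81, common vesicle markers, were at 0.29, -0.32 and 0.89 and did not pass. These are rat genes of the recipient lung and do not measure the vesicles given. Of 11 genes for MSC surface proteins Thy1, also on T cells and fibroblasts, was lower, at -0.45 and -0.27 with EVs and 1.48 and 1.19 with MSCs. The difference was -1.70 (SE 0.31, limma adjusted p = 0.0264) and -0.16 on the control scale. Eng, which encodes endoglin, missed the threshold at -1.49 (SE 0.45, limma adjusted p = 0.0651) and stood at 0.04 on the control scale. Of 10 genes for mediators through which MSCs are known to act, Ptges, a prostaglandin E synthase, was lower at -1.22, which turned to 0.32 on the control scale, and Arg1 at 1.48 and Nos2 at -1.14 did not pass. Tnfaip6 was not kept by the filter.

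Smoke-responsive and oxidative stress genes gave 1 call in each direction among 22, beside 3.13% higher and 8.73% lower of all features. Ahrr, the repressor of the aryl hydrocarbon receptor, was higher at 1.45, with the MSC arrays not well above background. On the percentile scale the ratio is at least 2.38-fold, by the rule given below for genes not well above background. Its difference turned to -0.64 with normexp, under which this bound does not hold. Slc7a11, the cystine importer, was lower at -1.42 and stood at 0.11 on the control scale. Cyp1a1, the receptor's classic target, differed widely between the EV arrays, with levels of -6.34 and -1.72, and was not well above background on the MSC arrays. Its fitted difference of 3.19 did not pass (SE 1.24, limma adjusted p = 0.118). No bound on the ratio is given, since the EV arrays differed so widely. Nqo1, a target of NRF2, stood at -0.25. Mmp12, the macrophage elastase, was not kept by the filter.

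The 12 named genes with the highest differences ran from 2.83 to 3.73, and 8 of them were not well above background on either MSC array, so they passed the filter through the EV arrays alone. For such genes the ratio is a lower bound on the percentile scale, the EV mean against the higher, on each MSC array, of the probe's own signal and the dimmest signal well above background. Such a bound depends on the background correction and does not hold for these 8 genes with normexp. Gucy1b1, the beta subunit of the nitric oxide receptor guanylate cyclase, had levels of -3.31 and -3.15 with EVs and -6.98 and -6.94 with MSCs. It was at least 6.50-fold brighter with EVs. Fundc2, a protein of the outer mitochondrial membrane, was at least 7.13-fold brighter, and Gpm6a, a membrane glycoprotein of neurons and of alveolar type 1 cells, at least 6.35-fold. Gpr158, an orphan receptor known from brain, was at least 5.68-fold brighter. P2rx1, an ATP-gated channel of platelets and smooth muscle, was at least 4.37-fold brighter, Slfn4, a schlafen gene of myeloid cells, at least 3.99-fold, and the receptor tyrosine kinase gene Ros1 at least 3.03-fold. C2cd2l, a lipid transfer protein, was at least 5.89-fold brighter by 1 probe, while its other probe stood at 0.20. With normexp background correction, which draws dim signals together, these 8 differences lay between -0.42 and -0.036 and none was called.

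The other 4 of the 12 were well above background on every EV and MSC array. Steap4, a metalloreductase of iron and copper uptake, had levels of -0.12 and -0.35 with EVs and -3.68 and -2.75 with MSCs. On the percentile scale the EV arrays were the highest of the 8 for Steap4, while on the control scale the smoke arrays, at -0.59 and -2.37, overlapped them, at -1.87 and -2.80. The difference was 2.98 (SE 0.48, limma adjusted p = 0.0254). Lyve1, the hyaluronan receptor of lymphatic endothelium and some macrophages, stood at 0.50 and 0.05 with EVs and -2.18 and -3.02 with MSCs. The naive arrays (-0.78 and 0.25) lay near the EV arrays, the smoke arrays (1.96 and 2.15) above them, and the difference was 2.88 (SE 0.43, limma adjusted p = 0.0254). Acer2, a Golgi ceramidase that releases sphingosine, had levels of 2.03 and 2.08 with EVs and -0.25 and -1.30 with MSCs. Its difference was 2.83 (SE 0.42, limma adjusted p = 0.0254), and smoke again lay highest, at 2.43 and 2.72. On the control scale the 12 genes stood between 4.36 and 5.26, each called higher.

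**Figure D4:**
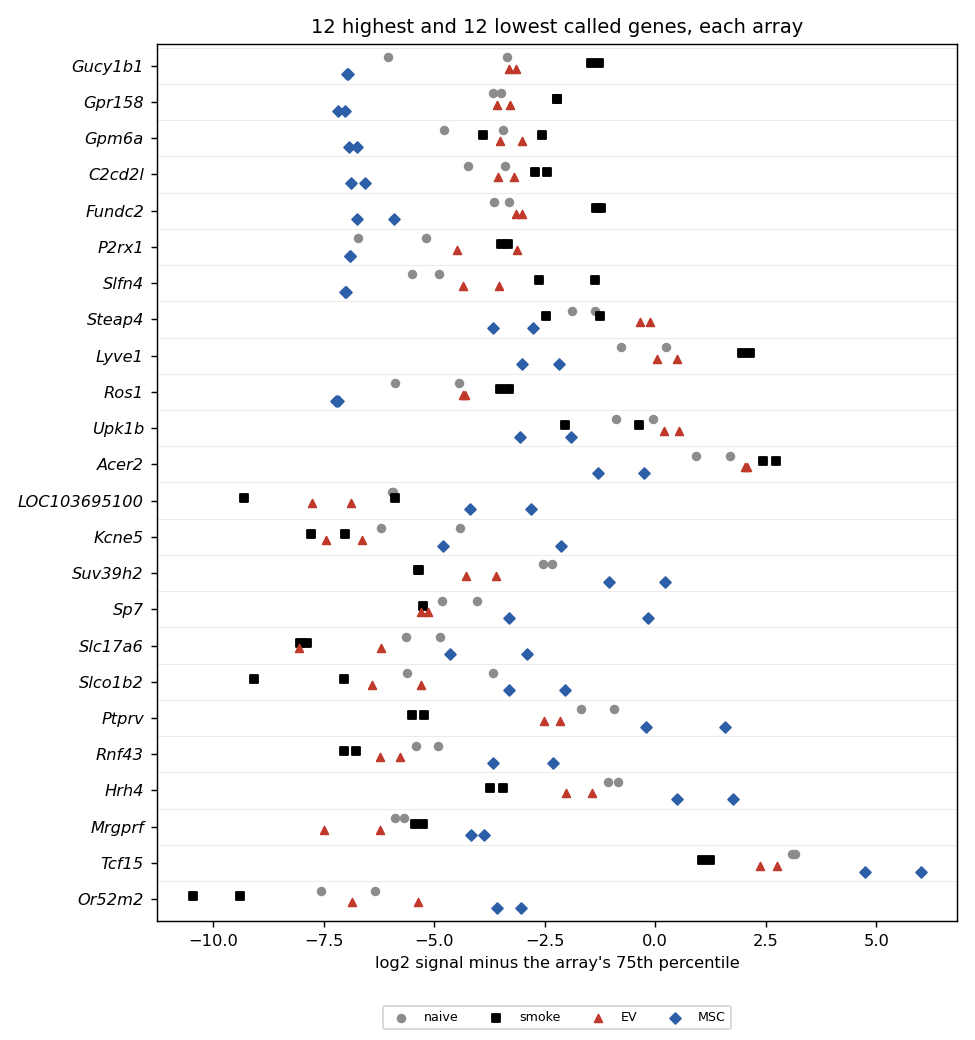
Level (log2 signal minus the array's 75th percentile, x axis) of the 12 called genes with the highest and the 12 with the lowest difference, 1 gene a row, on each array of the naive, smoke, EV and MSC groups. In the upper 12 rows both MSC arrays (blue) lie below both EV arrays (red), and in the lower 12 rows above them; 7 of the lower 12 were called lower on the control scale as well.

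The 12 named genes with the lowest differences ran from -3.83 to -2.81. Of these, 7 were also called lower on the control scale, and no other gene with a symbol was called lower on both scales. Among the 12, median centring and cyclic loess each lost the calls of Kcne5, LOC103695100, Slco1b2 and Sp7, and quantile normalization those of Kcne5 and Sp7. Suv39h2 kept its call in 17 of 21 alternatives, Kcne5 in 8 of 20 and Sp7 in 6 of 21. Suv39h2, a methyltransferase that places the histone H3 lysine 9 mark of heterochromatin, had levels of -4.28 and -3.60 with EVs and 0.23 and -1.05 with MSCs. The naive arrays (-2.54 and -2.33) lay between them and the smoke arrays (-5.37 and -5.34) below both on the percentile scale. The smoke arrays, at -4.71 and -5.24 on the control scale, lay above the EV arrays there, at -6.03 and -6.05. The difference was -3.53 (SE 0.44, limma adjusted p = 0.0254) and -1.99 on the control scale (limma adjusted p = 0.00867).

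Rnf43, a ubiquitin ligase that removes Wnt receptors from the cell surface, stood at -6.23 and -5.76 with EVs and -3.67 and -2.32 with MSCs. It was well above background on 1 of the 2 EV arrays, and its difference was -3.00, or -1.47 on the control scale. Ptprv, a receptor tyrosine phosphatase known from bone, had levels of -2.16 and -2.52 with EVs and 1.58 and -0.20 with MSCs, and a difference of -3.03, or -1.49 on the control scale. The liver anion transporter gene Slco1b2 stood at -3.18, or -1.65 on the control scale. Kcne5, an accessory subunit of potassium channels, Slc17a6, a vesicular glutamate transporter of neurons, and the uncharacterised LOC103695100 were not well above background on either EV array. These genes passed the filter through the MSC arrays alone. They were at least 8.13-fold, 6.23-fold and 7.99-fold brighter with MSCs on the percentile scale. On the control scale the bounds were 2.81-fold, 2.15-fold and 2.76-fold, with fitted differences of -2.05, -1.80 and -2.29. These bounds concern group means. For Kcne5 the groups overlapped on the control scale, at -8.38 and -9.90 with EVs and -8.47 and -5.73 with MSCs.

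The other 5 of the 12 were lower on the percentile scale and not called on the control scale. Hrh4, the histamine H4 receptor of mast cells and eosinophils, had levels of -2.03 and -1.44 with EVs and 1.76 and 0.48 with MSCs. Its difference of -2.86 (SE 0.44, limma adjusted p = 0.0254) became -1.32 (limma adjusted p = 0.0547). Tcf15, a basic helix-loop-helix factor of somites and of capillary endothelium, stood at 2.36 and 2.76 with EVs and at 6.01 and 4.74 with MSCs, a difference of -2.81 that became -1.28. Sp7, the osterix factor of bone-forming cells, at -3.48, and the olfactory receptor gene Or52m2, at -2.81 and well above background on 1 EV array, were among them. The orphan receptor gene Mrgprf, not well above background on the EV arrays, passed the filter through the MSC arrays alone. By group means it was at least 4.79-fold brighter with MSCs on the percentile scale and at least 1.66-fold on the control scale. On the control scale its nearest arrays stood at -7.98 with EVs and -7.84 with MSCs (limma adjusted p = 0.0819). Sp7 was fitted without smoke replicate 2, dropped as an outlier spot.

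Receptor genes of smell and taste, which lung is not known to use at high level, gave mostly lower calls on the percentile scale. Of 1276 on the array 165 passed the filter, and of these 38 were called lower and 1 higher, beside 8.73% and 3.13% of all features. Their median of -1.07 turned to 0.47 on the control scale, where 13 were called higher and 0 lower. With the first MSC array left out 3 were called. Or8b54c had levels of -0.77 and -0.33 with EVs and 1.54 and 1.43 with MSCs. On the percentile scale both naive arrays (0.16 and 0.25) lay between the treated groups and both smoke arrays (-3.38 and -2.76) below them, while on the control scale the smoke arrays, at -2.72 and -2.67, lay within the range of the EV arrays. The difference was -2.03 (SE 0.32, limma adjusted p = 0.0254), or -0.50 on the control scale. Vom2r15, the single higher call, stood at 2.52 with the MSC arrays not well above background, at least 2.35-fold brighter with EVs, and turned to -0.57 with normexp.

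Housekeeping groups gave few calls, beside 3.13% higher and 8.73% lower of all features. Of 18 cytosolic ribosomal protein genes 2 were lower, Rpsa at -1.28 and Rps14 at -1.10, both of which turned on the control scale, to 0.26 and 0.43, and the median of the list was -0.42, which turned to 1.12 there and to 0.15 with quantile normalization. The other probes of these genes, which have many processed copies in the genome, stood as high as -0.57 for Rpsa and 0.37 for Rps14. Of 14 cell cycle genes, Cdkn1a, the p21 inhibitor, was higher at 1.46, with its other probe at 0.78. The Cdkn1a call was kept in 7 of 21 alternatives and lost with the mean of its probes. Mcm3, a subunit of the replicative helicase, was lower at -1.72, with its other probe at -0.92. On the control scale Mcm3 stood at -0.18 and was not called. Of 12 clock genes Npas2 was higher at 1.27, a call lost with normexp at 0.20, and Clock was lower at -1.42, which turned to 0.11 on the control scale. Proteasome (13 tested), respiratory chain (16), cholesterol synthesis (12), heat shock (10) and apoptosis (15) genes included no call.

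Single calls also fell in lists of coagulation, antigen presentation and neighbouring tissue. F3, the tissue factor that starts coagulation, was higher, at 1.78 and 1.85 with EVs and -0.17 and 0.80 with MSCs, without overlap (limma adjusted p = 0.0424), and at 3.03 in difference on the control scale. Tapbp, which loads peptide onto class I molecules, was lower at -1.07 and turned to 0.47 on the control scale, and none of 10 class II genes was called. Hba-a1, a haemoglobin chain of red cells, was lower, at 8.75 and 8.70 with EVs and 10.31 and 9.69 with MSCs, a difference of -1.27 that turned to 0.26. Cfd, an adipocyte and complement gene, was lower at -1.45 and stood at 0.09 on the control scale, and Chad, a cartilage matrix gene, was lower at -1.88 and stood at -0.34 there. Chad kept its call in 4 of 21 alternatives and Cfd in 7. Sox10, a transcription factor of glia, was lower at -1.40, which turned to 0.13 on the control scale. Over all lists together, 18 of 500 genes tested were higher and 25 lower on the percentile scale, beside 3.37% and 6.34% of all named features. On the control scale 256 of them were higher and 0 lower.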

How the data were processed

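Rat lung RNA was measured on 8 1-colour arrays. Per the file headers, scans of array design 074036 were read with Agilent Feature Extraction, version 10.7.3.1, and the authors deposited the intensity values per spot, background-subtracted by that software and not normalized between arrays. The other values used from the deposited files are flags of 0 or 1 for spots well above background, saturated or outliers. What else was done to them is not given in sources used here. All arrays lie on 1 slide with 1 scan.

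Outlier spots were dropped (306 to 511 per array), control spots left out and spots of a probe averaged. No spot was saturated. A level was the processed signal on the log2 scale, less the 75th percentile of its array, and the control scale subtracted the mean of the 7 of 10 E1A control probes with mean log2 signal above 6. Probes well above background on both EV or both MSC arrays were kept (26753 of 45598), and the brightest kept probe stood for a gene (2385 genes had several). Symbols came from RefSeq accessions and its GRCr8 gene names, and 21215 probes matched and 24383 did not. An outlier removed an array from 148 features. The number of arrays limits the precision.

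The 4 group means were fitted over 8 arrays with limma 3.58.1 in R 4.3.3 (data.table, version 1.17.8; 4 residual degrees of freedom, prior 4.14), with Benjamini-Hochberg adjustment over all features and 2-sided p. The fit was tested on simulated data. Figures used Python 3.11.15 and matplotlib 3.10.9.

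Named genes were the 12 highest and 12 lowest called symbols, up to 3 called members of each list in each direction, and 16 genes fixed whatever their values, with Nr4a1, Egr1, Areg and other list members without a call named as examples after their values were seen. A gene that the rule names is not reported here. The comparison, the lists and the genes were chosen with earlier results of these data known. Alternatives were median, quantile, cyclic loess and E1A scaling, normexp with an offset of 50, other filters, the mean of a gene's probes, other sets of arrays, a trended and robust prior, array weights, a replicate block, and leaving out arrays singly.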

Additional observations from a re-analysis of the deposited data

Results flagged for a closer look

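The array also carries probes for the ERCC spike-in RNAs, synthetic sequences not mentioned in the labels, and some were brighter on the treated than on the naive arrays. On the control scale ERCC-00113_271 was above naive by 1.74 log2 units on the EV arrays and 1.83 on the MSC arrays. ERCC-00018_67 was above naive by 1.67 with EVs and 1.67 with MSCs. In log2 signal without scaling, the untreated smoke arrays lay below naive for both probes. They stood at 4.80 and 6.13 against 9.31 and 8.65 for ERCC-00113_271, and at 1.77 and 2.58 against 5.93 and 4.86 for ERCC-00018_67. On the MSC arrays ERCC-00002_129 was above naive by 0.171 and ERCC-00014_76 by 0.268, differences smaller than most gene differences described above. These probes entered no other comparison.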

How the results depend on the processing

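Counts moved by over 1.5 times under several choices of scaling, background correction, filter and arrays, and the cause was not tested. Against 2826 calls (746 higher and 2080 lower with EVs), 43 of list genes, 70 of named genes and 39 of smell and taste receptor genes, scaling to the E1A controls gave 11094 calls, 11077 higher and 17 lower, with 256 list genes, 43 named genes and 13 receptor genes. Requiring a call on both scales, chosen after seeing the data, left 746 higher and 16 lower. The share of calls that were higher was 26.4% in the report's fit and 56.7% with median centring (1194 higher, 910 lower, 25 receptor genes). It was 54.3% with quantile normalization (1552 higher, 1308 lower) and 51.7% with cyclic loess (993 lower, 46 named genes, 19 receptor genes). Normexp background correction gave 10961 calls, 10218 of them lower, with 155 list genes and 152 receptor genes. Probes well above background on all 4 arrays gave 68 list genes. With no filter on dim probes, or with only the EV and MSC arrays, limma called 0 features, 0 higher and 0 lower, and 0 list, named or receptor genes. Without both smoke arrays 1112 features were called, 262 higher and 850 lower, with 10 list genes, 34 named genes and 24 receptor genes. Array weights gave 1103, 335 higher and 768 lower, with 12 list genes, 34 named genes and 21 receptor genes. Averaging the probes of a gene and a trended and robust prior moved no count of features by over 1.5 times.

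Leaving out each array in turn gave 0 to 2761 calls, 0 to 817 higher, 0 to 2013 lower, 0 to 39 list genes, 0 to 61 named genes and 0 to 41 receptor genes. A group left with 1 array adds nothing to the estimate of spread, so leaving out either smoke array gives the same calls as leaving out both.

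With the replicate number as a block (replicate block) 2369 features were called, 592 higher and 1777 lower, with 54 named genes and 32 list genes. The labels do not say whether the replicate numbers pair samples. Differences between replicates of the EV and MSC groups correlated at -0.09 over features, and over all pairs of groups at -0.17 to 0.14. Such correlations cannot show whether samples were paired.

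Some genes changed sign. With normexp Gucy1b1 turned to -0.036, Gpr158 to -0.11, Gpm6a to -0.047, C2cd2l to -0.12, Fundc2 to -0.084, P2rx1 to -0.42, Slfn4 to -0.31, Ros1 to -0.39, Ahrr to -0.64, Vom2r15 to -0.57 and Hgf to -0.53. On the control scale Cd3d turned to 0.19, Pax5 to 0.23, Hba-a1 to 0.26, Cfd to 0.086, Sox10 to 0.13, Tsg101 to 0.24, Tapbp to 0.47, Slc7a11 to 0.11, Ptges to 0.32, Clock to 0.11, Sting1 to 0.39, Rpsa to 0.26 and Rps14 to 0.43. Of genes that did not pass, Il1b turned to 1.01, Tnf to 0.24, Nqo1 to 1.29 and Eng to 0.041 there. Nqo1 also turned to 0.030 with median centring and 0.052 with quantile normalization. Sftpc turned to 1.47 on the control scale, 0.21 with median centring, 1.07 with quantile normalization, 0.49 with cyclic loess and 0.082 with normexp. With single arrays left out, Hgf ran from -0.19 (without EV replicate 2) to 0.67, Sftpc from -0.51 to 0.37 (without MSC replicate 1) and Scgb1a1 from -0.78 (without MSC replicate 1) to 1.13. Precision is limited by 2 arrays a group and, for 216 higher and 83 lower calls, by dimmer groups in which neither array was well above background.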
